A study of Mus musculus with 4 samples.

Results

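Retinoic acid is the hormone-like product of vitamin A that patterns the neural tube, and the 9 genes described here make it, break it down, carry it or respond to it. They were chosen by symbol, out of 24971 genes counted in the series: the synthesising enzymes Aldh1a2 and Aldh1a3, the degrading enzyme Cyp26b1, the cellular binding proteins Crabp1 and Crabp2, the retinol-uptake receptor Stra6 and the nuclear receptors Rara, Rarb and Rarg. Of these, 7 had enough counts to be tested and 2, Cyp26b1 and Crabp1, did not. RNA had been sequenced from whole neural tubes of E12.5 mouse embryos of the C57BL/6 background. The labels give wild type (WT) for 2 libraries and Lbx1Δ/Δ for the other 2, a mutation of the homeobox gene Lbx1 whose deleted part the labels do not describe. Each library pooled tubes of one genotype within a litter, so that the p-values below measure the spread between such pools. The main test has no term for the replicate number, so differences between the numbers count in that spread. The labels do not say whether libraries of the same replicate number came from the same litter.

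Retinol enters cells through receptors such as STRA6 and is oxidised first to retinaldehyde and then, by retinaldehyde dehydrogenases of the ALDH1A family, to retinoic acid. CRABP proteins bind retinoic acid in the cytoplasm, CYP26 enzymes oxidise it further and remove it, and RAR receptors, paired with RXR receptors, bind DNA at response elements and switch target genes on when the ligand is present. In the embryonic spinal cord, Aldh1a2 is known from the meninges and from limb-level motor neurons, Crabp1 from commissural neurons, and Rarg mainly from cartilage precursors and epidermis outside the nervous system.

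Rarb is itself a classical target of retinoic acid receptors, and its promoter is shown because it holds a response element while the other member windows searched did not. The window runs from 250 bases before to 50 bases after the annotated start, at chr14:16575427-16575726 on the minus strand (GRCm38.p6, sequence from RefSeq). Capitals mark both half-sites of the element.
Rarb promoter: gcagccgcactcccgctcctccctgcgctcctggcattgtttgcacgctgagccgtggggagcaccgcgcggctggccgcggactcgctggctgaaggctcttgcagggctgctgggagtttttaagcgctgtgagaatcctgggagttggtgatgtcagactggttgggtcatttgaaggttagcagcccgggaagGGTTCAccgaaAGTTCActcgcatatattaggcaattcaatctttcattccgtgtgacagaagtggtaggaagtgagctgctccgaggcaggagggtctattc
The element, a direct repeat with a spacer of 5 bases, lay 53 to 37 bases before the start on which the window was set. The start of the matched transcript in GENCODE (GRCm38) lay 67 bases upstream of that one, so by that annotation the element falls after the start. The search took any pair of half-sites, where a half-site read AGGTCA or one of the variants AGTTCA or GGGTCA or GGTTCA, in the same orientation on either strand and with 1, 2 or 5 bases between them. Among 32851 promoter windows of the same length, 0.0974% held such a repeat with a spacer of 5 bases, 0.268% one with 2 and 0.222% one with 1. Windows were found for Aldh1a2, Crabp1, Cyp26b1, Stra6, Rara, Rarb and Rarg. None of the Rara windows lay at the start of the transcript that held almost all Rara counts. The nearest was 4460 bases from it, so the promoter of that transcript was not searched. A match in the letters is a description and does not show that a receptor bound there.

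Rarg has separate promoters for its transcripts NM_011244 and NM_001042727, and both are shown because the transcripts were counted separately and differed in pattern (see the bars of Rarg by transcript). The windows have the same span as above and are on the minus strand (GRCm38.p6, from RefSeq), at chr15:102257473-102257772 for NM_011244 and chr15:102246451-102246750 for NM_001042727. Neither held a repeat of the kind searched, so neither has capitals.
Rarg promoter of NM_011244: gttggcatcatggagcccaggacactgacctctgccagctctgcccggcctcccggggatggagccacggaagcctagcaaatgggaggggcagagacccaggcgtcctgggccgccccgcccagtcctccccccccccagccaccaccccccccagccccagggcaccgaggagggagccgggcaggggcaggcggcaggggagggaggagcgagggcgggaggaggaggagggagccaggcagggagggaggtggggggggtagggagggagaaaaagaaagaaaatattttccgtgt
Rarg promoter of NM_001042727: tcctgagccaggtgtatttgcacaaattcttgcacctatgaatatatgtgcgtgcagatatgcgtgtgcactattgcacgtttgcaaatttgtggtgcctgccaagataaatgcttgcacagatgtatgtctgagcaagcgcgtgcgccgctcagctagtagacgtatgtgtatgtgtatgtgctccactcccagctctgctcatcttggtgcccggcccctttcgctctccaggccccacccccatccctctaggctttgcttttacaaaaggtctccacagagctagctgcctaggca

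The libraries held 16853984 to 20579803 counts, and levels are given as counts scaled to the library total (CPM). The limit that a 0 sets is 3 counts, or 0.146 to 0.178 CPM depending on the library, for counting error only. Lbx1 stood at 39.8 CPM in WT library 1 and 81.4 CPM in WT library 2, against 113 and 387 CPM in libraries 1 and 2 labelled Lbx1Δ/Δ. The targeted gene was therefore higher where the label says it is mutated, the counted part may lie outside the deletion, and every direction below is between libraries as labelled. Across the 10757 genes tested, 0 passed edgeR's quasi-likelihood test of genotype at a Benjamini-Hochberg adjusted p of 0.05 (0% called), and 0.511% of them, or 55, reached 0.05 before adjustment. With DESeq2 the numbers were 0 and 33, with edgeR's exact test 0 and 62, and with limma-voom 0 and 61. Evenly spread p-values would put a share of 0.05 of all genes below 0.05. Each of these tests gave far fewer, so 0 called does not show that the labels were alike. With the replicate number as a block, edgeR called 92 genes (0.855%), none of them a member. Lbx1 had a log2 difference of 2.02 on genotype alone (SE 0.68, edgeR unadjusted p = 0.033, adjusted p = 0.9998). With the block its difference was 1.88 (SE 0.13, edgeR adjusted p = 1.19e-06), so Lbx1 was called higher there.

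None of the 9 retinoic acid genes was called different between the labels, and the receptors Rara and Rarb came nearest. In the edgeR test 0 of the 7 tested members passed over all genes and 1, Rara, had an unadjusted p below 0.05. DESeq2 and the exact test called 0 members and had 0 below 0.05 before adjustment, and limma-voom called 0 and had 1. The fitted difference was above 0 for 5 members and below 0 for 2, with a median of 0.12 on the log2 scale against −0.0026 over all genes tested. In 3 members (Aldh1a2, Rara and Rarb) both libraries labelled Lbx1Δ/Δ lay above both WT libraries, as they did in 11.3% of all genes tested. In 1 member (Aldh1a3) both lay below, as in 9.31% of all genes. Overlap was scored on CPM of the library total. With the scaling of the edgeR test, the log2 difference of Aldh1a2 within number 2 was −0.0074, so its place among the 3 depends on the scaling. The list is short and was chosen with earlier results known, so these counts are a description.

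**Figure D1:**
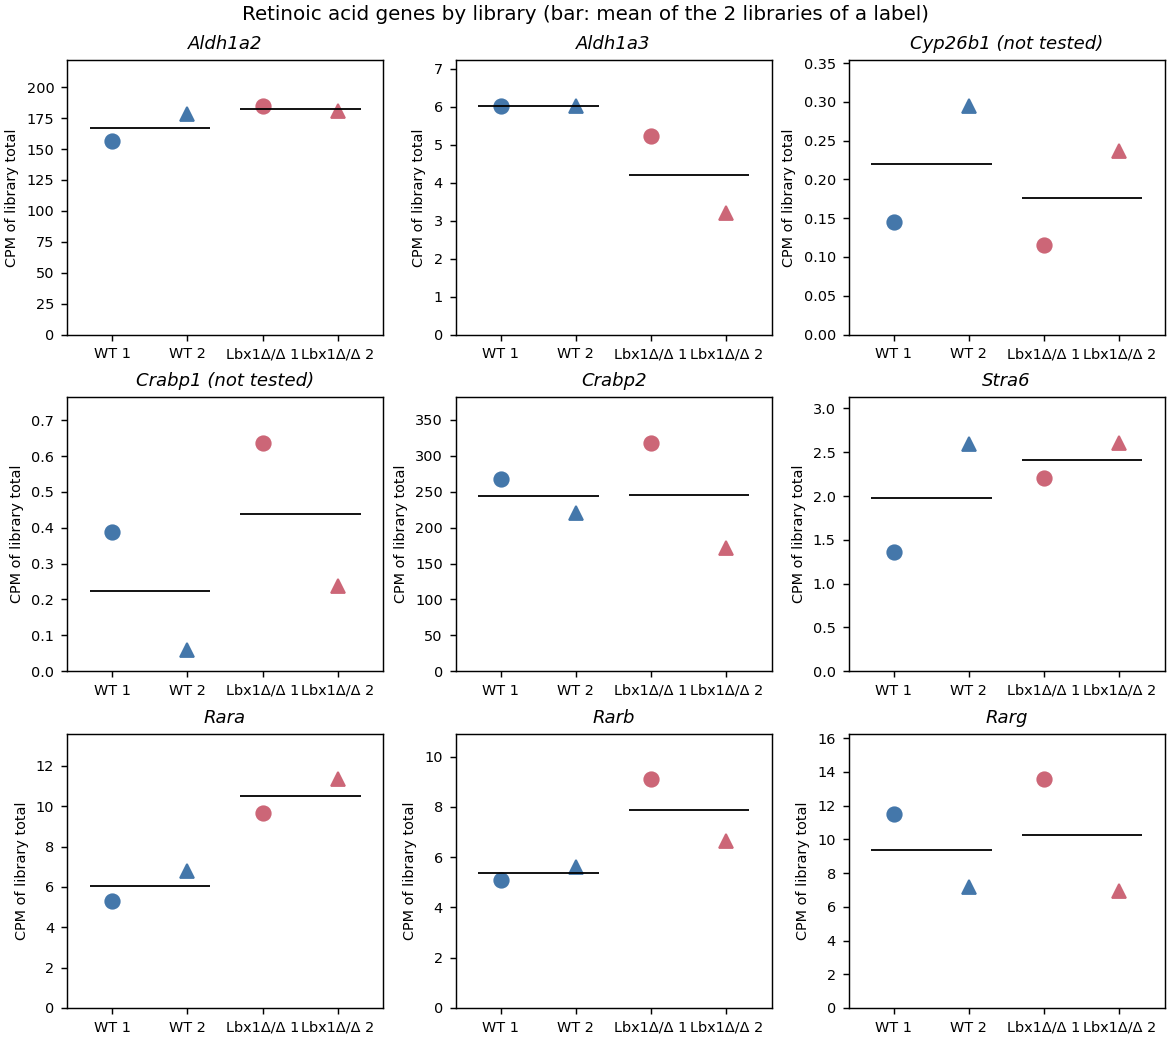
Level of each of the 9 genes in CPM of the library total (vertical axes from 0, each gene on its own scale) in the 4 libraries, with a bar at the mean of the 2 libraries of a label. Rara stood at 5.30 and 6.79 CPM in WT and at 9.68 and 11.3 CPM in the Lbx1Δ/Δ-labelled libraries, while Crabp2 and Rarg were lower in both libraries numbered 2.

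Aldh1a2, which encodes the main retinoic acid synthesising enzyme of the early embryo and trunk, was the steadiest of the 7 tested members over the 4 libraries. WT libraries 1 and 2 stood at 156 and 178 CPM, against 185 and 180 CPM in the Lbx1Δ/Δ-labelled libraries. WT library 1 was the lowest of the 4, and the other 3 lay close together. The fitted log2 difference was 0.11 (SE 0.15, 95% interval −0.29 to 0.52, edgeR adjusted p = 0.9998), so a change above about 1.43-fold in either direction lay outside the interval. Within number 1 the log2 difference was 0.24 and within number 2 it was −0.0074.

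Aldh1a3, a related enzyme best known from the eye, nasal region and forebrain, had far fewer counts. It was at 6.03 and 6.02 CPM in WT and at 5.22 and 3.20 CPM in the Lbx1Δ/Δ-labelled libraries. Both WT libraries were nearly equal, and library 2 labelled Lbx1Δ/Δ, with 54 counts, was the lowest. The fitted log2 difference was −0.52 (SE 0.39, 95% interval −1.53 to 0.48, edgeR adjusted p = 0.9998). It was −0.21 without library 2 labelled Lbx1Δ/Δ and −0.92 without library 1 labelled Lbx1Δ/Δ. Per kilobase of annotated transcript (GENCODE, GRCm38), the level of Aldh1a2 was 69.0 to 81.7 CPM per kb and that of Aldh1a3 was 0.931 to 1.75 CPM per kb. Both genes have a single transcript in the files, and their ranges over the 4 libraries did not overlap. The marker genes of forebrain and eye summed to 39.7 and 6.73 CPM in WT libraries 1 and 2 and to 26.6 and 6.11 CPM in the Lbx1Δ/Δ-labelled libraries. That list was lower in number 2 within both labels, whereas Aldh1a3 was level in WT, and the part of such tissue in the Aldh1a3 values was not tested.

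Cyp26b1, which encodes an enzyme that clears retinoic acid, was barely counted. It had 3 and 5 counts in WT and 2 and 4 counts in the Lbx1Δ/Δ-labelled libraries, and was not tested. Its 2 annotated transcripts share nearly all their sequence: of 4157 and 4170 bases, 107 and 120 lie in no other transcript of the gene (GENCODE, GRCm38). A read that falls on both cannot be given to one of them, and no source used here says how such reads were treated. The low counts may therefore understate how strongly Cyp26b1 was expressed, which was not tested.

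The same limit may apply to Crabp1, which encodes a cytoplasmic retinoic acid binding protein. It had 8 and 1 counts in WT and 11 and 4 counts in the Lbx1Δ/Δ-labelled libraries, all of them in the transcript NM_013496, while NM_001284507 had 0 in every library. GENCODE ties both to a single transcript of 802 bases. Crabp1 was lower in both libraries numbered 2, but on counts this small no comparison was made.

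Crabp2, the binding protein that hands retinoic acid to its nuclear receptors, was the most heavily counted member and its values were ordered by replicate number and not by label. It stood at 268 CPM in WT library 1 and 220 CPM in WT library 2, against 319 and 172 CPM in the Lbx1Δ/Δ-labelled libraries. The highest and the lowest value both belonged to the Lbx1Δ/Δ-labelled libraries, and the labels overlapped completely. The WT mean was 244 ± 34.0 CPM (SD, n = 2) and that of the Lbx1Δ/Δ-labelled libraries 245 ± 104 CPM (SD, n = 2). The fitted log2 difference was −0.0023 (SE 0.34, 95% interval −0.90 to 0.89, edgeR adjusted p = 0.9998), near 0 under every scaling tried and of either sign. It moved to 0.38 without library 2 and to −0.52 without library 1 labelled Lbx1Δ/Δ. Library 1 was 1.22-fold above library 2 in WT and 1.86-fold above it among those labelled Lbx1Δ/Δ. Per kilobase, Crabp2 stood at 184 to 342 CPM per kb, above the range of Aldh1a2.

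Stra6, the membrane receptor through which cells take up retinol from its serum carrier, was at 1.36 and 2.60 CPM in WT and at 2.20 and 2.61 CPM in the Lbx1Δ/Δ-labelled libraries. WT library 1 was again the lowest, and the labels overlapped. The fitted log2 difference was 0.27 (SE 0.48, 95% interval −0.97 to 1.52, edgeR adjusted p = 0.9998), and it was −0.10 without WT library 1. Its counts of 28 to 44 per library came from 3 of its 4 transcripts, and NM_009291 held 82.1%, 70.5%, 84.2% and 56.8% of them in WT libraries 1 and 2 and libraries 1 and 2 labelled Lbx1Δ/Δ. The 95% Wilson intervals of these shares, from 42.2% to 92.6% over the libraries, overlapped.

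**Figure D2:**
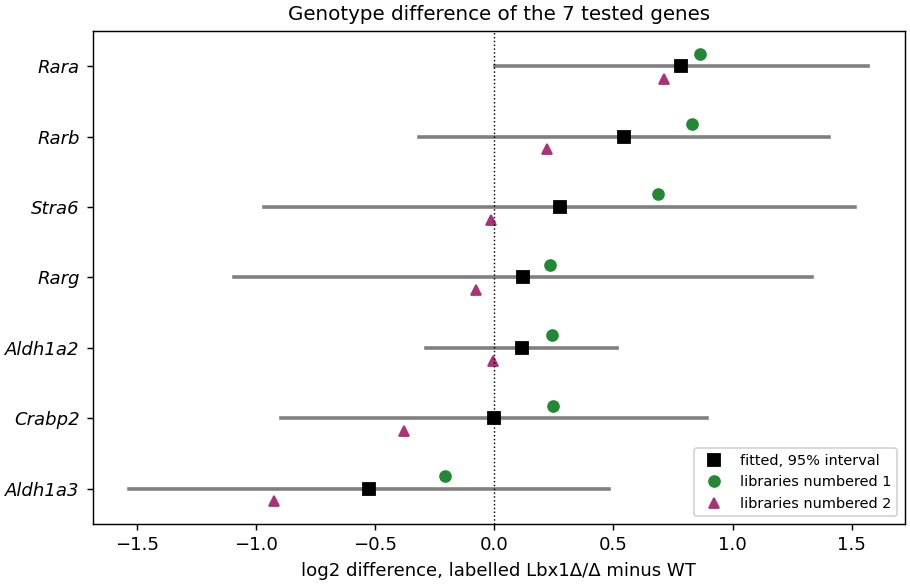
Log2 difference between the Lbx1Δ/Δ-labelled libraries and WT (horizontal axis) for the 7 tested genes: squares are the fitted values with their 95% intervals, and circles and triangles the differences between libraries numbered 1 and between libraries numbered 2. The interval of Rara runs from 0.0024 to 1.57, those of the other 6 genes include 0, and only Rara, Rarb and Aldh1a3 have both points on the same side of 0.

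Rara encodes the most widely expressed of the retinoic acid receptors. It had 109 and 115 counts in WT and 167 and 191 counts in the Lbx1Δ/Δ-labelled libraries, or 5.30 and 6.79 CPM against 9.68 and 11.3 CPM. Both libraries labelled Lbx1Δ/Δ lay above both WT libraries without overlap. The WT mean was 6.04 ± 1.05 CPM (SD, n = 2) and that of the Lbx1Δ/Δ-labelled libraries 10.5 ± 1.17 CPM (SD, n = 2), a fitted 1.72-fold ratio. The log2 difference was 0.79 (SE 0.30, 95% interval 0.0024 to 1.57), with 0.87 within number 1 and 0.71 within number 2. It did not pass edgeR's test over all genes (unadjusted p = 0.0495, adjusted p = 0.9998). With a library left out it ranged from 0.64 to 0.97 and stayed above 0.

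The Rara counts came almost wholly from a single transcript. NM_001176528 held 97.4% to 99.1% of them, while NM_009024 and NM_001177302 had 0 counts in every library. In GENCODE (GRCm38), 722 of the 3238 bases of NM_001176528 lie in no other counted transcript of Rara that could be matched, against 20 of 2469 for NM_009024 and 155 of 3384 for NM_001177302. Where in the gene the Rara reads lie was not tested, and if shared reads were dropped, its value leaves out the reads that several transcripts have in common.

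Rarb encodes the receptor whose promoter is printed above. It was at 5.10 and 5.61 CPM in WT and at 9.10 and 6.65 CPM in the Lbx1Δ/Δ-labelled libraries. Library 1 labelled Lbx1Δ/Δ stood highest, and the labels did not overlap. The WT mean was 5.35 ± 0.356 CPM (SD, n = 2) and that of the Lbx1Δ/Δ-labelled libraries 7.87 ± 1.74 CPM (SD, n = 2). The log2 difference was 0.55 (SE 0.33, 95% interval −0.32 to 1.41, edgeR adjusted p = 0.9998), with 0.83 within number 1 and 0.22 within number 2. It was 0.30 without library 1 and 0.76 without library 2 labelled Lbx1Δ/Δ. Of its 4 transcripts NM_011243 held 99.1% of all Rarb counts.

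Rarg encodes the receptor best known from cartilage precursors and skin. It had 237 and 122 counts in WT and 234 and 117 in the Lbx1Δ/Δ-labelled libraries, or 11.5 and 7.20 CPM against 13.6 and 6.94 CPM. Both libraries numbered 1 stood above both libraries numbered 2, by 1.60-fold in WT and 1.95-fold in those labelled Lbx1Δ/Δ, and the labels overlapped. The log2 difference between the labels was 0.12 (SE 0.46, 95% interval −1.09 to 1.33, edgeR adjusted p = 0.9998). It ranged from −0.45 without library 1 to 0.53 without library 2 labelled Lbx1Δ/Δ, was −0.18 without WT library 2 and was 0.52 without WT library 1.

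Both transcripts of Rarg were lower in number 2 in WT, while among the Lbx1Δ/Δ-labelled libraries only NM_011244 was. That difference rests on library 2 labelled Lbx1Δ/Δ alone. NM_011244 had 179 and 88 counts in WT and 181 and 65 in the Lbx1Δ/Δ-labelled libraries, so that library 1 was 1.68-fold and 2.72-fold above library 2. NM_001042727 had 58 and 34 counts in WT and 53 and 52 in the Lbx1Δ/Δ-labelled libraries, ratios of 1.40 and 0.996. NM_011244 held 75.5% of the Rarg counts in WT library 1 (95% Wilson interval 69.7% to 80.6%), 72.1% in WT library 2 (63.6% to 79.3%) and 77.4% in library 1 labelled Lbx1Δ/Δ (71.6% to 82.2%). In library 2 labelled Lbx1Δ/Δ it held 55.6% (46.5% to 64.2%), an interval below those of both libraries numbered 1 and overlapping that of WT library 2. These intervals cover counting error only. Of the annotated bases, 676 are particular to NM_011244 and 441 to NM_001042727 (GENCODE, GRCm38), and the counts rest on those stretches if shared reads were dropped.

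**Figure D3:**
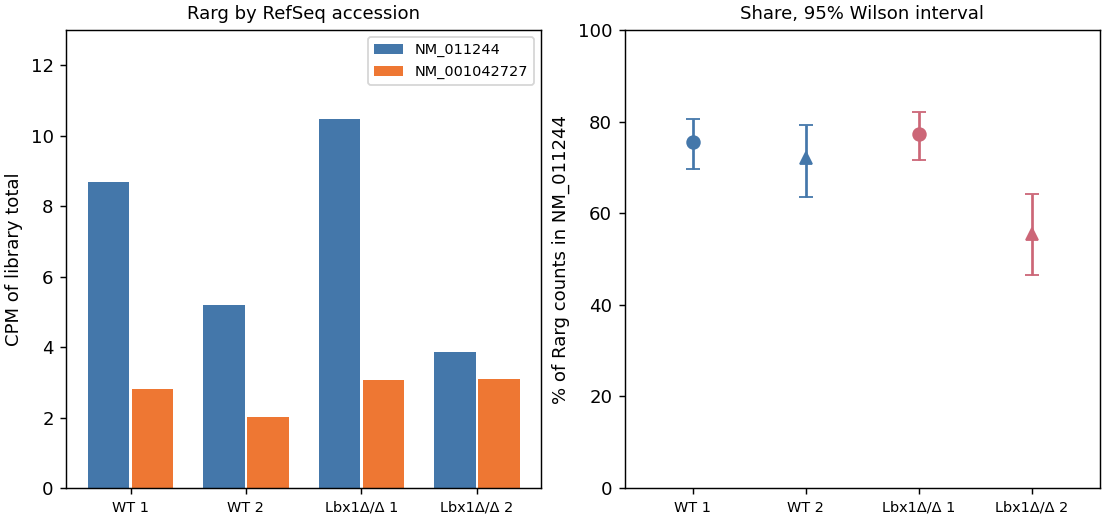
Left, level of Rarg in CPM of the library total for its transcripts NM_011244 and NM_001042727 in the 4 libraries. Right, share of the Rarg counts in NM_011244 with its 95% Wilson interval (counting error only), which lies between 72.1% and 77.4% in 3 libraries and at 55.6% in library 2 labelled Lbx1Δ/Δ.

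By replicate number, 1 of the 7 tested members (Stra6) was higher in both libraries numbered 2 and 2 (Crabp2 and Rarg) were lower in both. Over all genes tested 34.1% were higher and 31.9% lower in this way, and 7 members are too few to tell their shares from these. Across the 10757 genes, the median log2 difference of number 2 against number 1 was −0.00055 in WT and 0.0011 in the Lbx1Δ/Δ-labelled libraries. For the members it was −0.29 in WT and −0.92 in the Lbx1Δ/Δ-labelled libraries for Crabp2, −0.68 and −0.99 for Rarg, and 0.92 and 0.21 for Stra6. For Rara it was 0.35 and 0.20, for Aldh1a2 0.18 and −0.065, for Rarb 0.13 and −0.48 and for Aldh1a3 −0.0085 and −0.73. The last 3 went different ways or were level in one of the labels.

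**Figure D4:**
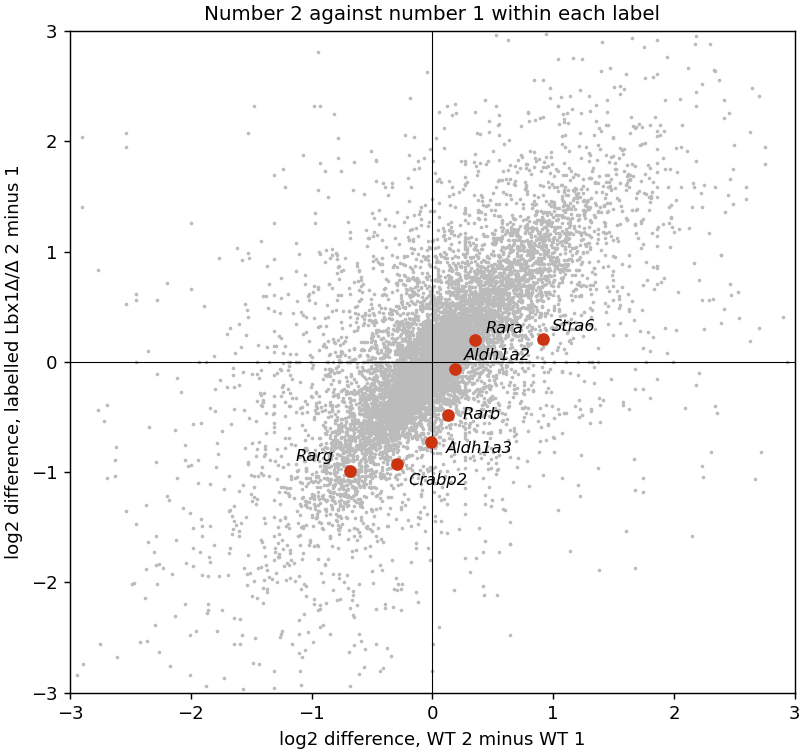
Log2 difference of library 2 against library 1 among WT (horizontal axis) and among the Lbx1Δ/Δ-labelled libraries (vertical axis), for all 10757 tested genes (grey, of which 146 lie outside the axes) and the 7 tested members (red). Rarg and Crabp2 lie to the lower left of the origin, and Stra6 and Rara to the upper right.

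Markers of some tissues were lower in both libraries numbered 2, as Crabp2 and Rarg were, and markers of others were not, and the counts below stand beside the 31.9% of all genes that were lower and the 34.1% that were higher in this way. In bulk RNA, fewer cells of a type and less RNA per cell cannot be told apart. Skeletal muscle markers were lower in both libraries numbered 2 in 9 of 9 tested genes and summed to 940 and 447 CPM in WT libraries 1 and 2 and to 804 and 141 CPM in those labelled Lbx1Δ/Δ, with Tnnt1 at 0 counts throughout. Surface ectoderm markers were lower in 6 of 7, with sums of 149 and 93.9 CPM and of 110 and 57.8 CPM and Trp63 at 0. Roof plate markers were lower in 5 of 6 (126 and 72.1 CPM, 106 and 71.2 CPM), and meningeal and perineural mesenchyme markers in 7 of 13, with 3 of 13 higher (6749 and 4999 CPM, 4801 and 4416 CPM). Forebrain and eye markers were lower in 3 of 4 and higher in 1, and choroid plexus markers lower in 2 of 5 and higher in 1. Cartilage markers had no common direction gene by gene, though their sums were lower in number 2: 1 of 6 was lower and 1 of 6 higher (660 and 529 CPM, 455 and 418 CPM). Limb and caudal axis markers were higher in 7 of 9 (105 and 301 CPM, 141 and 269 CPM), and liver markers in 3 of 3 (34.2 and 45.8 CPM, 32.4 and 60.0 CPM). A single gene made up most of each of these sums. For liver it was Trf (32.2 and 37.5 CPM, 27.7 and 39.8 CPM), and for limb and caudal axis Hoxc10 (70.1 and 156 CPM, 75.0 and 147 CPM). The part of these tissues in the Crabp2 and Rarg values was not tested.

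Neuronal markers went the other way. The pan-neuronal list was higher in both libraries numbered 2 in 4 of 4 tested genes, with sums of 3148 and 5831 CPM in WT and of 3641 and 6874 CPM in the Lbx1Δ/Δ-labelled libraries and Syt1 at 0 counts. Motor neuron markers, the neuron class that itself makes Aldh1a2 at limb levels, were higher in 7 of 8 (217 and 335 CPM, 238 and 379 CPM, Prph at 0). Aldh1a2 was higher in number 2 in WT, at 156 and 178 CPM, and about level among the Lbx1Δ/Δ-labelled libraries, at 185 and 180 CPM, and the part of motor neurons in its values was not tested. Neural progenitor markers had no common direction: 3 of 9 were lower and 2 of 9 higher in both libraries numbered 2, with Pax6 at 0 counts. Mki67, a proliferation marker, stood at 812 and 575 CPM in WT and at 914 and 424 CPM in the Lbx1Δ/Δ-labelled libraries, while Fabp7, a radial glia marker, stood at 658 and 1209 CPM and at 780 and 1275 CPM. The sum of the list, 5734 to 6051 CPM over the 4 libraries, hides these differences. The labelled tissue was thus present by its markers, and single genes at 0 in all libraries included ones with several transcripts.

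**Figure D5:**
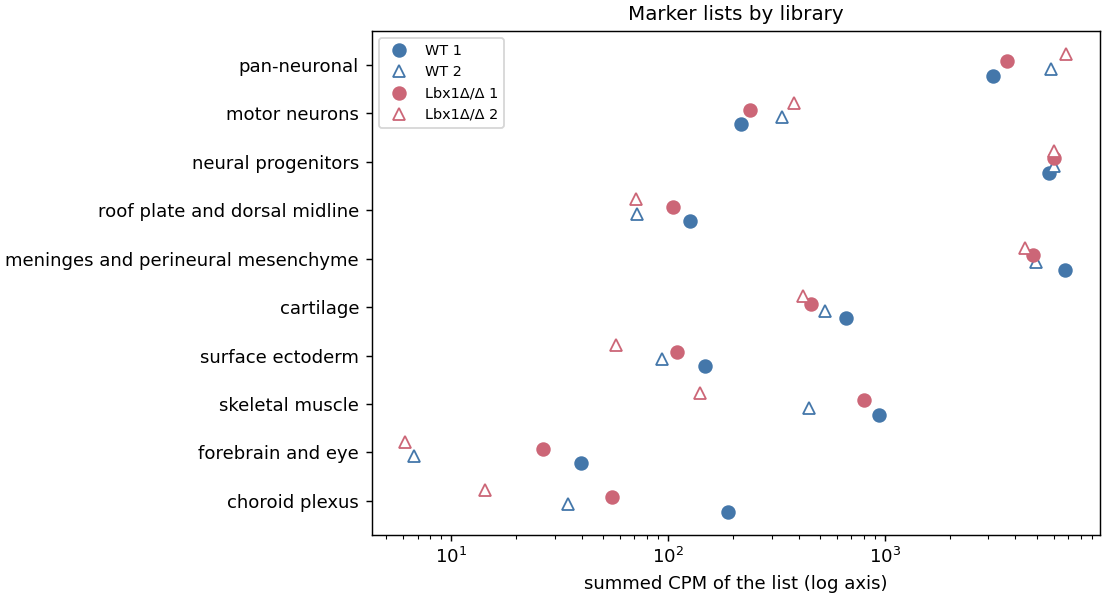
Summed level of 10 marker lists in CPM of the library total (log axis) in the 4 libraries, blue for WT, red for those labelled Lbx1Δ/Δ, filled circles for number 1 and open triangles for number 2. Muscle, ectoderm, forebrain and choroid plexus lists stand lower in the libraries numbered 2, and pan-neuronal and motor neuron lists higher.

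Between the labels, markers of mesenchyme, cartilage, skeletal muscle, surface ectoderm and choroid plexus had lower medians in the Lbx1Δ/Δ-labelled libraries, beside the higher values of Rara and Rarb, while those of liver and of limb and caudal axis had higher ones. The median log2 difference was −0.37 for mesenchyme (10 of 13 tested genes below 0), −0.42 for cartilage (6 of 6), −0.57 for skeletal muscle (9 of 9), −0.60 for surface ectoderm (7 of 7) and −0.72 for choroid plexus (5 of 5, Folr1 at 0 counts). It was 0.26 for pan-neuronal genes (4 of 4 above 0), 0.28 for motor neurons (7 of 8), 0.12 for neural progenitors (6 of 9) and −0.10 for the roof plate (3 of 6 on each side). The remaining lists gave 0.20 for neural crest and glial precursors (3 of 5 above 0), 0.16 for sensory ganglia (5 of 7) and −0.60 for forebrain and eye (1 of 4). They gave 0.24 for limb and caudal axis (5 of 9), 0.95 for liver (2 of 3), −0.10 for endothelium (1 of 3) and −1.32 for mesothelium and urogenital tissue (0 of 3). The limb and caudal axis median was 3.21 within number 1 and −0.56 within number 2. The sign also differed for forebrain and eye (−0.62 and 0.22) and for the roof plate (−0.25 and 0.14). No gene of these lists passed the edgeR test on genotype alone (0 called), and 3 had an unadjusted p below 0.05, beside 0.511% of all genes tested. With the replicate number as a block, edgeR called 92 of all 10757 genes (0.855%), 63 lower and 29 higher in the Lbx1Δ/Δ-labelled libraries. Lower were 3 of 13 tested mesenchyme genes (Foxc1, Lum and Alx4) and 2 of 6 cartilage genes (Col11a1 and Hapln1). So were 2 of 5 choroid plexus genes (Ttr and Clic6), 1 of 9 muscle genes (Myh3), 1 of 7 ectoderm genes (Krt5) and 1 of 3 mesothelium genes (Wt1). Higher were 1 of 4 pan-neuronal genes (Map2) and 1 of 3 liver genes (Alb). None was called in the other marker lists. The part of these tissues in the values of Rara and Rarb was not tested.

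The rest of the retinoid pathway was taken from 5 lists with 71 symbols, of which 69 were in the files and 39 could be tested. No gene passed the edgeR test of genotype (0 called, 0 at an unadjusted p below 0.05) and DESeq2, the exact test and limma-voom gave 0 and 0 as well. Fitted values were above 0 for 26 and below 0 for 13, with a median of 0.063 against −0.0026 over all genes tested. Both libraries labelled Lbx1Δ/Δ lay above both WT libraries in 4 of the 39 and below in 3. Those shares are near the background of 11.3% and 9.31%. Of the 35 pathway genes with several transcripts, 13 had 0 counts in all libraries, against 2 of the 34 with a single one. The obligate partners Rxra and Rxrb, chosen here after their values were seen, were among those at 0.

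In transport and storage, Dgat1, which can esterify retinol, was at 37.5 and 37.2 CPM in WT and at 41.1 and 43.1 CPM in the Lbx1Δ/Δ-labelled libraries. Ttr, a serum transport protein for thyroid hormone and vitamin A that is also a choroid plexus marker, was at 142 and 15.5 CPM in WT and at 36.1 and 0.890 CPM in the Lbx1Δ/Δ-labelled libraries. Its log2 difference of −2.09 had an SE of 1.73, and its values spread widely within each label. The median of the 4 tested genes was 0.15.

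In oxidation and reduction, Rdh10, the retinol dehydrogenase that supplies retinaldehyde in the embryo, was at 46.5 and 52.5 CPM in WT and at 42.3 and 45.0 CPM in the Lbx1Δ/Δ-labelled libraries (log2 −0.19, SE 0.19). Both libraries labelled Lbx1Δ/Δ were below both WT libraries by a small margin. Dhrs4, a carbonyl reductase, was at 16.8 and 11.7 CPM in WT and at 13.3 and 9.43 CPM in the Lbx1Δ/Δ-labelled libraries. Cyp1b1, a cytochrome that can oxidise retinoids, had a log2 difference of −0.29 (SE 0.25) and Rdh14 one of 0.029 (SE 0.21). The 7 tested genes had a median of −0.19.

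The degrading enzymes other than Cyp26b1 separated the replicate numbers within both labels. Cyp26a1 stood at 6.61 CPM in WT library 1 and 1.30 CPM in WT library 2, against 7.65 and 0.593 CPM in the Lbx1Δ/Δ-labelled libraries. Cyp26c1 was at 3.06 and 0 CPM in WT and at 2.61 and 0.119 CPM in the Lbx1Δ/Δ-labelled libraries. Both genes, known from restricted embryonic domains that include the head, were thus found mainly in the libraries numbered 1, whichever the label. The forebrain and eye markers moved alike (39.7 and 6.73 CPM, 26.6 and 6.11 CPM), and the part of head tissue in these values was not tested.

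Among receptor partners and coregulators, the median log2 difference of the 9 tested genes was 0.040. Ep300, an acetyltransferase that receptors recruit, was at 234 and 295 CPM in WT and at 266 and 295 CPM in the Lbx1Δ/Δ-labelled libraries. The coactivators Crebbp, Ncoa3 and Ncoa1 and the nuclear receptor Ppard had log2 differences of 0.13, 0.077, −0.16 and 0.036, with SE values of 0.16 to 0.22. None lay outside its own error.

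Known response genes outside the member list had a median log2 difference of 0.26 over the 17 tested, with 13 above 0. Over all genes tested the median was −0.0026, with 5322 of 10757 above 0. Hoxd4, a Hox gene with a known retinoic acid response element, was at 58.3 and 86.3 CPM in WT and at 92.9 and 109 CPM in the Lbx1Δ/Δ-labelled libraries (log2 0.46, SE 0.24). Its labels did not overlap, as for Rarb. Both libraries labelled Lbx1Δ/Δ lay above both WT libraries in 2 of the 17 response genes, near the 11.3% of all genes tested. Hoxb4 was at 64.3 and 88.8 CPM in WT and at 81.6 and 100.5 CPM in the Lbx1Δ/Δ-labelled libraries, and Hoxa4 had a log2 difference of −0.0014 (SE 0.21). Hoxb5 and Hoxb8 differed chiefly by number. Hoxb5 was at 137 and 282 CPM in WT and at 176 and 347 CPM in the Lbx1Δ/Δ-labelled libraries. Hoxb8 was at 285 and 671 CPM in WT and at 358 and 784 CPM in those labelled Lbx1Δ/Δ. The response list was higher in both libraries numbered 2 in 10 of 17 tested genes and lower in 3, beside 34.1% and 31.9% of all genes.

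The genes whose pattern over the 4 libraries was most like a member's were found by the root mean square distance of centred log2 levels. For Rara they were Prdm8 and Sp5, at distances of 0.043 and 0.049, and 12 genes lay within 0.1. For Rarb they were Nsmf and Avpr1a (0.027 and 0.054, 18 genes within 0.1). For Rarg they were Ccnf and Eme1 (0.0036 and 0.023, 84 genes), and for Crabp2 Riox2 and Fam160a1 (0.015 and 0.017, 100 genes). Aldh1a3 was nearest to Cdkal1 and Parp9 (0.028 and 0.036, 22 genes), and Stra6 to 9330136K24Rik and Kansl2 (0.038 and 0.045, 32 genes). Aldh1a2, with its flat profile, had Ercc5 among its nearest genes (0.011) and 849 genes within 0.1. With 4 libraries many genes share any given profile, so likeness here is a description of these libraries.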

How the data were processed

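Whole neural tubes were profiled by RNA-seq in 4 libraries. The submitters' processing notes name genome build mm9 and the tools TopHat2 2.1.1, featureCounts 4.6.0.1 and edgeR 3.4.3. The authors deposited unnormalized read counts, 1 for each RefSeq transcript. For the annotation release, the strand setting and reads shared by transcripts nothing is given in the sources used here, so genes with several transcripts, overlapping genes or antisense partners may be counted in part. Of 41411 accessions, 41218 were named from a RefSeq gene table (GRCm38.p6), 97 from GENCODE and 96 stayed unnamed (0.325% to 0.649% of the counts) and were kept as genes of their own. Counts were summed per symbol to 24971 genes. GRCm38 differs from mm9, so it served for names, promoter windows and transcript lengths only.

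Genes were filtered with filterByExpr by group (minimum count 10, minimum total 15), scaled with TMM and tested with glmQLFit and glmQLFTest (edgeR 4.0.16, R 4.3.3), two-sided, on genotype alone, with Benjamini-Hochberg adjustment over 10757 genes at 0.05. SE was taken from the fitted difference and its F statistic, and intervals are 95%. Printed CPM use the library total. Differences within a number or label use TMM-scaled levels with 0.5 counts added. DESeq2 1.42.0, limma 3.58.1 and the other settings in the closing section were alternatives.

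The 9 members, the 5 pathway and 16 marker lists and the tests were chosen with earlier results of these data known. Named were Lbx1, the members, up to 5 genes of each pathway list and up to 3 of each marker list by mean CPM, and the 2 nearest patterns of each tested member. Marker genes at 0 counts or called with the block, Mki67, Fabp7, Rxra and Rxrb were named after their values were seen. Some genes that these rules would name are not reported here.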

Additional observations from a re-analysis of the deposited data

How the results depend on the processing

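Across the 14 alternatives, 0 members passed an adjusted p of 0.05 (7 to 9 of the 9 could be tested, depending on the filter and the libraries). Of 98 values for single tested members, 90 kept their direction and 8 reversed. Crabp2, at −0.0023 on the log2 scale, was 0.012 with upper-quartile scaling, 0.0068 with library totals alone, 0.0067 with a filter of CPM above 1 in 2 libraries, 0.17 without WT library 1 and 0.38 without library 2 labelled Lbx1Δ/Δ. Stra6 was −0.10 without WT library 1, and Rarg was −0.18 without WT library 2 and −0.45 without library 1 labelled Lbx1Δ/Δ. The cause was not tested. With a library left out, Crabp2 ranged from −0.52 to 0.38, Stra6 from −0.10 to 0.80 and Rarg from −0.45 to 0.53. With only the largest accession of each symbol, Stra6 was 0.17 and Rarg 0.038. Leaving out any one library gave 0 genes called, with 23 to 296 at an unadjusted p below 0.05, where the lone library of a label was taken to vary like the other label.

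With the replicate number as a block (replicate block), edgeR called 92 of all genes (0.855%), 29 higher and 63 lower, and 2 of the other pathway genes, Hoxd4 higher and Ttr lower, but 0 members: Rara had a log2 difference of 0.79 (SE 0.22, edgeR adjusted p = 0.109) and Rarb one of 0.53 (SE 0.25, edgeR adjusted p = 0.402). The labels do not pair the numbers. Deviations of equal-numbered libraries from their group means correlated across genes (r = 0.62 over 10757 genes, which are not independent). Cyp26b1 and Crabp1, with 1 to 11 counts per library, fell below the filter. Among the tested members the SE of the main fit did not simply follow the counts. It was 0.48 for Stra6 (28 to 44 counts), 0.46 for Rarg (117 to 237) and 0.39 for Aldh1a3 (54 to 124). Crabp2, with the most counts, had an SE of 0.34, against 0.33 for Rarb, 0.30 for Rara and 0.15 for Aldh1a2. Whether sequencing depth or the treatment of shared reads made counts low was not tested.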
